A study of Mus musculus with 16 samples.

Results

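Kidneys of male (XY) mice homozygous for the recessive Klotho mutation were compared with kidneys of male control mice, over every gene of the deposited expression table. The 8 libraries, 4 against 4, were those whose column labels marked a male KlKl or a male control animal, and they were 8 of the 16 libraries of the study. The other 8 libraries came from female (XX) animals and entered the fit to help estimate the spread between animals. Female controls 1 to 4 were all heterozygous (+/Kl), at 47, 47, 57 and 48 days of age. Female KlKl animals 1 to 4 (Kl/Kl) were at 47, 47, 48 and 52 days. All animals were C57BL/6J mice, onto which the Klotho mutation had been made congenic by backcrossing, and each library is labelled as its own animal. The KlKl group (genotype Kl/Kl, renal failure per the labels) held animals 1 to 4 at 47, 49, 46 and 59 days of age. The control group (healthy kidneys per the labels) held controls 1 and 2, heterozygous (+/Kl), both at 47 days, and controls 3 and 4, wild type (+/+), at 46 and 48 days. Kidneys were perfused, dissected and flash frozen whole, and polyadenylated RNA was sequenced. The mutation is carried in the germ line, so every tissue carries it and not the kidney alone. Only KlKl 4 was older than 49 days, and no male control matched its age. The table holds 30277 genes, of which 8059 reached 1 TPM in at least 4 of the 16 libraries and were tested.

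Klotho, the product of Kl, is a membrane protein made mainly in the distal tubule of the kidney. It binds FGF receptors and turns them into receptors for FGF23, a hormone from bone that makes the kidney excrete phosphate, represses the enzyme that activates vitamin D (Cyp27b1) and induces the enzyme that inactivates it (Cyp24a1). Mice without Klotho are known for high blood phosphate, high active vitamin D, calcification of soft tissue and a syndrome that resembles ageing.

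The depth recovered from the deposited values was 13029960 to 20109342 reads per male library, lowest in KlKl 3. Values are TPM, a length-scaled share of the reads, here scaled to a fixed total of 309446 per library and to the length of each gene from start to end, introns included. Differences are given as the KlKl mean minus the control mean of log2(TPM + 1), which understates the change of genes with low TPM. The share of TPM on mitochondrially encoded genes was 30.5% to 37.9% in KlKl libraries and 37.9% to 43.4% in control libraries (two-sided exact permutation p = 0.0286, the smallest that 70 arrangements of 4 against 4 allow). The share of recovered reads on these genes was 8.15% to 11.8% in KlKl and 11.5% to 14.9% in controls, with overlap (exact permutation p = 0.0571). Ddx3y, a Y-linked gene, was at 2.1 to 3.56 TPM in the male libraries and Xist at 0.0664 to 0.593 TPM. Markers of kidney cells were present in all 8, with a summed level over 15 markers of the early proximal tubule of 996 to 1648 TPM, and a list of 9 markers of the adrenal cortex summed to 3.11 to 5.34 TPM, with 5 of its members under 0.1 TPM in every male library. KlKl 3 stood apart: the first principal component, 42.5% of the variance among the males, placed it at 34.8 and the other 7 libraries between -17.6 and 10.0, and its median correlation with its own group was 0.960 against 0.983 to 0.987 for the others. The calls, and the values that KlKl 3 moves most, are therefore also given without it.

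Of 8059 genes tested, 8 passed an adjusted p of 0.05 by limma with Benjamini-Hochberg adjustment, which is 0.0993% of them. Kl and Gm6300 fell in KlKl kidneys (2 genes, 0.0248%). Mgst1, Rarres2, Trib1, Slc7a12, Serpina1a and B430119L08Rik rose (6 genes, 0.0745%). Without KlKl 3, 9 of the 8059 genes passed (0.112%), 8 of them higher (0.0993%) and 1 lower (0.0124%), and 4 were called in both fits, which is 50% of the first list and 44.4% of the second: Kl, Mgst1, Rarres2 and B430119L08Rik. The 5 genes called only in the fit without KlKl 3, Cyp24a1, Ces2e, Ces1g, Tsc22d1 and Nat8f2, all had higher levels in KlKl 1, 2 and 4 than in any control.

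The distribution of differences was shifted above 0. The median gene differed by 0.18, and 7324 of the 8059 genes had a positive difference. Scaling the libraries to each other by their median ratio over tested genes moved the median to -0.01. At an unadjusted p under 0.05, 1570 genes (19.5%) were higher and 33 (0.409%) lower in KlKl on the deposited scale, against 176 (2.18%) and 217 (2.69%) after median-ratio scaling. The ranges of the groups did not overlap for 936 higher genes (11.6%) and 14 lower genes (0.174%), against 173 (2.15%) and 179 (2.22%) after median-ratio scaling. A difference near 0.18 is therefore the level of the typical gene, and each list below is set beside it. Counts of higher members stand beside 7324 of 8059 genes. On the deposited scale with all animals, higher members at an unadjusted p under 0.05 stand beside 19.5%, and those without overlap beside 11.6%. After median-ratio scaling, higher members without overlap stand beside 2.15%. Without KlKl 3, higher members at an unadjusted p under 0.05 stand beside 828 of 8059 genes. For lower members the shares are 0.409% and 0.174%, and without overlap after median-ratio scaling 2.22%. After median-ratio scaling 2 genes passed, Kl and Gm6300, which is 0.0248% of genes, and without KlKl 3 those that passed (0.062%) were Kl, Rarres2, Ces2e, Cyp24a1 and Ces1g. Adding the animals' age to the fit gave 909 genes, 904 of them higher in KlKl, while age and median-ratio scaling together gave 1.

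**Figure D1:**
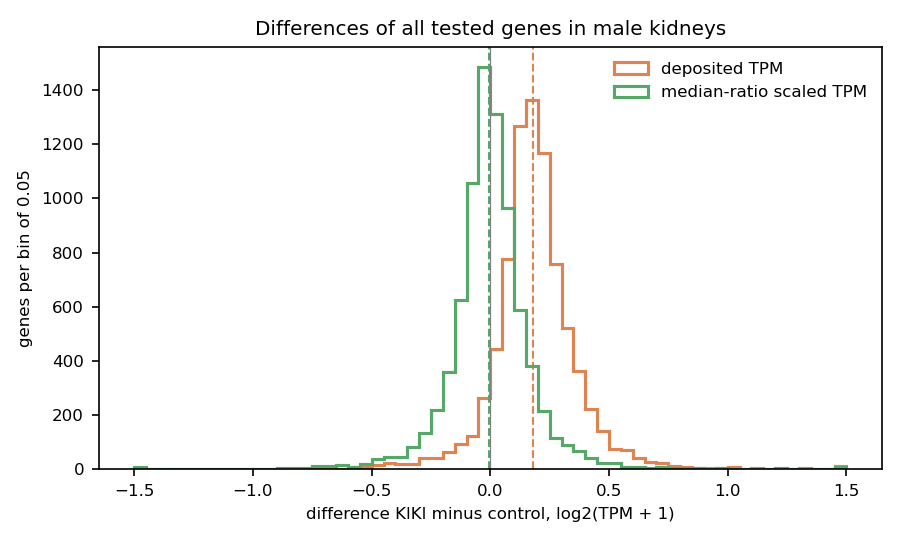
Number of genes (vertical axis) by their difference between male KlKl and male control kidneys in log2(TPM + 1) (horizontal axis), for deposited TPM and for median-ratio scaled TPM over 8059 tested genes, with values beyond the axis counted in the end bins. Dashed lines are the medians, 0.18 on the deposited scale and -0.01 after median-ratio scaling, so the 2 histograms are shifted against each other.

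Kl itself (ENSMUSG00000058488, chromosome 5, 150876072 to 150917283, plus strand, coordinates here and below on mm39 as deposited) checked the labels. Its level was 10.2, 7.82, 11.7 and 10.97 TPM in controls 1 to 4 and 1.49, 0.8815, 0.258 and 1.145 TPM in KlKl 1 to 4. The highest KlKl animal was below the lowest control by a wide margin, and KlKl 3 had the least. On the log2(TPM + 1) scale Kl fell by 2.56 (standard error 0.23, adjusted p = 6.87e-05 by limma), and without KlKl 3 the difference was -2.36 (adjusted p = 9.27e-05). Reads still fell within the gene in all KlKl animals, with 905, 657, 141 and 801 recovered reads in KlKl 1 to 4 against 8947, 6615, 10647 and 9178 in controls 1 to 4. The 2 heterozygous controls lay at 10.2 and 7.82 TPM and the 2 wild-type controls at 11.7 and 10.97 TPM. Library names began with CFK for controls 1 and 2 and KlKl 1 and 2 and with CFdk for the rest, so that among the controls name series and genotype cannot be told apart. Within the CFK series the difference was -2.20 and within the CFdk series -2.91. These are whole kidneys, in which fewer cells of a type and less RNA per cell cannot be told apart. Of 7 tested genes of FGF23 and Klotho signalling, among them FGF receptors and the targets Dusp6, Spry1 and Spry2, 1 passed, Kl, and the list's median difference of 0.18 (0.09 without KlKl 3) was close to that of all genes.

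Cyp24a1 rose once KlKl 3 was left out, and its counterpart Cyp27b1 had higher values in all 4 KlKl animals without passing the test. Cyp24a1, which inactivates vitamin D, was at 6.2, 4.29, 3.01 and 4.56 TPM in controls 1 to 4 and 76.9, 64.7, 4.48 and 49.1 TPM in KlKl 1 to 4. KlKl 1, 2 and 4 were each far above every control and KlKl 3 lay within the control range. With all 4 animals the difference was 2.67 with a standard error of 0.59 (adjusted p = 0.1285), and without KlKl 3 Cyp24a1 rose by 3.56 (standard error 0.25, adjusted p = 3.52e-06 by limma). Cyp27b1, which makes active vitamin D, was at 0.988, 2.28, 1.39 and 1.098 TPM in controls 1 to 4 and 6.08, 4.38, 13.9 and 3.59 TPM in KlKl 1 to 4. Here the groups did not overlap and KlKl 3 was the highest animal, so that it had the most Cyp27b1 and the least Cyp24a1 of its group. The difference was 1.58 (adjusted p = 0.0728) and 1.23 without KlKl 3 (adjusted p = 0.0778), past the threshold in neither fit. The vitamin D receptor Vdr differed by 0.29 (adjusted p = 0.253), with values of 3.199, 2.89, 3.02 and 3.98 TPM in controls 1 to 4 and 5.46, 4.92, 2.87 and 3.88 TPM in KlKl 1 to 4, and KlKl 3 was below every control. Gc, the vitamin D binding protein of plasma, was at 0.222, 0.251, 0.365 and 0.316 TPM in controls 1 to 4 and 0.803, 1.24, 6.07 and 0.668 TPM in KlKl 1 to 4, with no overlap, and differed by 1.03 (adjusted p = 0.219), or 0.55 without KlKl 3. Of 8 tested genes of vitamin D metabolism all 8 were higher in KlKl, 4 at an unadjusted p under 0.05, with a median of 0.27 (0.28 without KlKl 3 and 0.09 after median-ratio scaling).

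No tested gene of phosphate or calcium transport passed. Slc34a2, Slc20a2, Xpr1, Trpv5, Trpv6, Slc8a1, Atp2b1, Atp2b4 and Trpm6 were among the listed genes under the TPM filter, so they were not tested on TPM. Slc34a1, the main sodium-phosphate cotransporter of the proximal tubule, was at 174, 135.5, 195 and 178 TPM in controls 1 to 4 and 158, 160.2, 181.5 and 137.5 TPM in KlKl 1 to 4. On the deposited scale the groups overlapped, and the difference of -0.09 had an adjusted p of 0.739 by limma. After median-ratio scaling every KlKl animal lay below every control, with a difference of -0.35 that did not pass (adjusted p = 0.9997 by limma). Of 7 tested genes of phosphate transport and parathyroid hormone action 0 passed and 1 had an unadjusted p under 0.05. Their median of 0.04 (0.12 without KlKl 3) lay below that of all genes. After median-ratio scaling their median was -0.18, with 1 of the 7 higher and 1 lower without overlap (2.22% of all genes). S100g, the calcium-binding protein calbindin of the distal tubule and a known vitamin D target, was at 206, 235, 129.5 and 140.5 TPM in controls 1 to 4 and 335, 230.4, 312 and 278 TPM in KlKl 1 to 4. KlKl 1, 3 and 4 lay above every control and KlKl 2 did not, and the difference of 0.73 did not pass (adjusted p = 0.219). Of 16 genes listed for distal calcium and magnesium transport 6 were tested, Egf and Umod among them. All 6 were higher in KlKl, 2 at an unadjusted p under 0.05, with a median of 0.43 (0.41 without KlKl 3 and 0.20 after median-ratio scaling).

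Mgst1, a microsomal glutathione transferase that protects membranes from oxidised lipids, rose in every KlKl animal. It lies at ENSMUSG00000008540, chromosome 6, 138117314 to 138133754 (plus strand). Its level was 1.91, 1.89, 1.97 and 2.07 TPM in controls 1 to 4 and 5.01, 4.05, 6.56 and 4.77 TPM in KlKl 1 to 4. The controls spanned a narrow range and each KlKl animal lay above it, in KlKl 3 the most. The rise was 1.03 (standard error 0.14, adjusted p = 0.00711 by limma), 0.92 without KlKl 3 (adjusted p = 0.00777), and 0.93 and 1.13 within the 2 name series. After median-ratio scaling it was 0.80 (adjusted p = 0.103). NRF2, the transcription factor of the antioxidant response, binds an element with the core TGACNNNGC, and the promoter of Mgst1 is shown because its window around the start site holds this core. It stands in capitals, on the reverse strand, in the 200 bases at chr6:138140377-138140576 of GRCm38.p6 (RefSeq, plus strand), a build other than that of the deposited table:
Mgst1: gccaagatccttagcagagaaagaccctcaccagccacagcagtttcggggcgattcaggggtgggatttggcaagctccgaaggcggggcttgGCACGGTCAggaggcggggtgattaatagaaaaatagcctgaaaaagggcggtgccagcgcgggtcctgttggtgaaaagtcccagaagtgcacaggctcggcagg
The core begins at position -56 relative to the start site. Searched on both strands, it was found in 12.4% of 32851 RefSeq promoter windows (14% of 27025 genes), which reach from 250 bases before to 50 bases after a start.

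Mgst1 was the only gene of its list to pass. Of 29 tested genes of glutathione metabolism and the antioxidant response, 26 had a positive difference, a share near the 7324 of 8059 of all genes. In that direction 14 had an unadjusted p under 0.05 (19.5% of all genes), with a median of 0.30 (0.25 without KlKl 3 and 0.07 after median-ratio scaling). Nqo1, a quinone reductase and standard NRF2 target, was at 3.15, 2.545, 2.41 and 2.69 TPM in controls 1 to 4 and 6.35, 3.705, 4.699 and 6.305 TPM in KlKl 1 to 4. The groups did not overlap, and the difference of 0.74 (adjusted p = 0.0728) did not pass. Nfe2l2, the gene of NRF2, was at 2.06, 2.198, 1.85 and 1.999 TPM in controls 1 to 4 and 2.99, 2.75, 3.07 and 3.23 TPM in KlKl 1 to 4 and differed by 0.41 (adjusted p = 0.204). Gstt1, a cytosolic glutathione transferase, was at 5.09, 4.43, 5.27 and 4.83 TPM in controls 1 to 4 and 8.24, 6.85, 7.396 and 8.47 TPM in KlKl 1 to 4 and differed by 0.56 (adjusted p = 0.151). These 3 genes were without overlap between the groups on the deposited scale, and Gstt1 alone of them was so after median-ratio scaling. Of 24 members with a promoter window, 8 held the core, among them Nfe2l2.

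Serpina1a and a noncoding RNA near it on chromosome 12 rose. Serpina1a (ENSMUSG00000066366, chromosome 12, 103819848 to 103829822, minus strand) encodes 1 of the mouse alpha-1 antitrypsins, serpins that inhibit neutrophil elastase and are made mostly in liver. It was at 4.68, 1.745, 3.56 and 6.89 TPM in controls 1 to 4 and 16.9, 15.35, 33.9 and 18.97 TPM in KlKl 1 to 4. Every KlKl animal lay above every control, and KlKl 3 was the highest. The rise was 2.13 (standard error 0.34, adjusted p = 0.0319 by limma), and 1.89 without KlKl 3, where it no longer passed (adjusted p = 0.05098). B430119L08Rik (ENSMUSG00000086432, chromosome 12, 103862156 to 103865044, plus strand) is annotated as a long noncoding RNA. It was at 0.672, 0.157, 0.4415 and 0.798 TPM in controls 1 to 4 and 1.78, 1.82, 4.12 and 1.903 TPM in KlKl 1 to 4. KlKl 1, 2 and 4 lay close together above all controls and KlKl 3 lay higher again. It rose by 1.13 (standard error 0.19, adjusted p = 0.0325 by limma) and by 0.92 without KlKl 3 (adjusted p = 0.0213).

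Serpina1d, a close copy of Serpina1a, was at 6.955, 1.55, 4.85 and 7.72 TPM in controls 1 to 4 and 13.5, 12.3, 11.4 and 16 TPM in KlKl 1 to 4. The groups did not overlap, but KlKl 3 was the lowest of its group here and the highest for Serpina1a. The difference was 1.32 (adjusted p = 0.201), and it did not pass. Serpina1f, a further member, was at 18.3, 16.2, 12.98 and 18.1 TPM in controls 1 to 4 and 29.1, 21.55, 19.8 and 22.75 TPM in KlKl 1 to 4 and differed by 0.48 (adjusted p = 0.219). How reads of near-identical copies were assigned is not given in the sources used here, so that the split between Serpina1a and Serpina1d is uncertain. Their promoters are shown for their likeness: over 100 aligned bases 93 were identical, and the 7 that differ are in capitals (RefSeq, GRCm38.p6, minus strand, chr12:103863620-103863719 for Serpina1a and chr12:103773629-103773728 for Serpina1d).
Serpina1a: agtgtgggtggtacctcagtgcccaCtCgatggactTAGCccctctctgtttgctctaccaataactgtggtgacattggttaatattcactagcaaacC
Serpina1d: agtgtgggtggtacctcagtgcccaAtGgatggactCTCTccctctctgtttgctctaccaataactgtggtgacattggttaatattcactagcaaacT
Of 7 tested genes of the serpin A family and the acute phase all 7 were higher in KlKl, 6 at an unadjusted p under 0.05, with a median of 0.57 (0.71 without KlKl 3 and 0.37 after median-ratio scaling). The list holds liver genes, and Apoe is among its tested members.

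Rarres2 (ENSMUSG00000009281, chromosome 6, 48546630 to 48549724, minus strand) encodes chemerin, a secreted chemoattractant and adipokine induced by retinoids in skin. It was at 5.01, 4.63, 6.685 and 6.59 TPM in controls 1 to 4 and 40.2, 30.8, 11.1 and 39.4 TPM in KlKl 1 to 4. The controls lay close together, KlKl 1, 2 and 4 lay far above them, and KlKl 3 lay between. Rarres2 rose by 2.08 (standard error 0.35, adjusted p = 0.0325 by limma) and by 2.49 without KlKl 3 (adjusted p = 0.000384), and it passed without KlKl 3 after median-ratio scaling too (2.27, adjusted p = 0.000606). Within the CFK series the difference was 2.64 and within the CFdk series, which holds KlKl 3, 1.53.

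Trib1 (ENSMUSG00000032501, chromosome 15, 59520199 to 59528949, plus strand), a pseudokinase that directs the degradation of the transcription factor C/EBP alpha, was at 1.17, 1.196, 1.45 and 1.49 TPM in controls 1 to 4 and 2.755, 2.45, 3.56 and 2.09 TPM in KlKl 1 to 4. The groups did not overlap. It rose by 0.66 (standard error 0.12, adjusted p = 0.0439 by limma), and without KlKl 3 the difference of 0.56 did not pass (adjusted p = 0.0773). Cebpb, a C/EBP factor of the acute phase and of stress, was at 10.1, 10.7, 9.605 and 13.6 TPM in controls 1 to 4 and 21.65, 14.2, 37.5 and 18.2 TPM in KlKl 1 to 4, again without overlap, and differed by 0.92 (adjusted p = 0.166), or 0.66 without KlKl 3. Of 8 tested tribbles and C/EBP genes all 8 were higher in KlKl, 4 at an unadjusted p under 0.05 and 5 without overlap (2 after median-ratio scaling), with a median of 0.35 (0.27 without KlKl 3).

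A further pair lies on chromosome 3. Slc7a12 (ENSMUSG00000039710, chromosome 3, 14545757 to 14570891, plus strand), an amino acid transporter that is more abundant in female than in male mouse kidney, was at 0.125, 0.167, 0.309 and 0.406 TPM in controls 1 to 4 and 1.23, 1.41, 2.19 and 2.32 TPM in KlKl 1 to 4. All controls were under 0.5 TPM and all KlKl animals over 1 TPM. It rose by 1.14 (standard error 0.20, adjusted p = 0.0439 by limma), and without KlKl 3 by 1.07, which did not pass (adjusted p = 0.0778). Gm6300 (ENSMUSG00000104375, chromosome 3, 14428177 to 14442648, plus strand) is annotated as an unprocessed pseudogene. It was at 3.44, 4.65, 4.91 and 1.77 TPM in controls 1 to 4 and 1.68, 0.692, 0.0417 and 0.0855 TPM in KlKl 1 to 4. KlKl 1 came within a small margin of control 4, and KlKl 3 and 4 were near 0. It fell by 1.58 (standard error 0.26, adjusted p = 0.0319 by limma), and without KlKl 3 the difference of -1.41 did not pass (adjusted p = 0.05098).

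**Figure D2:**
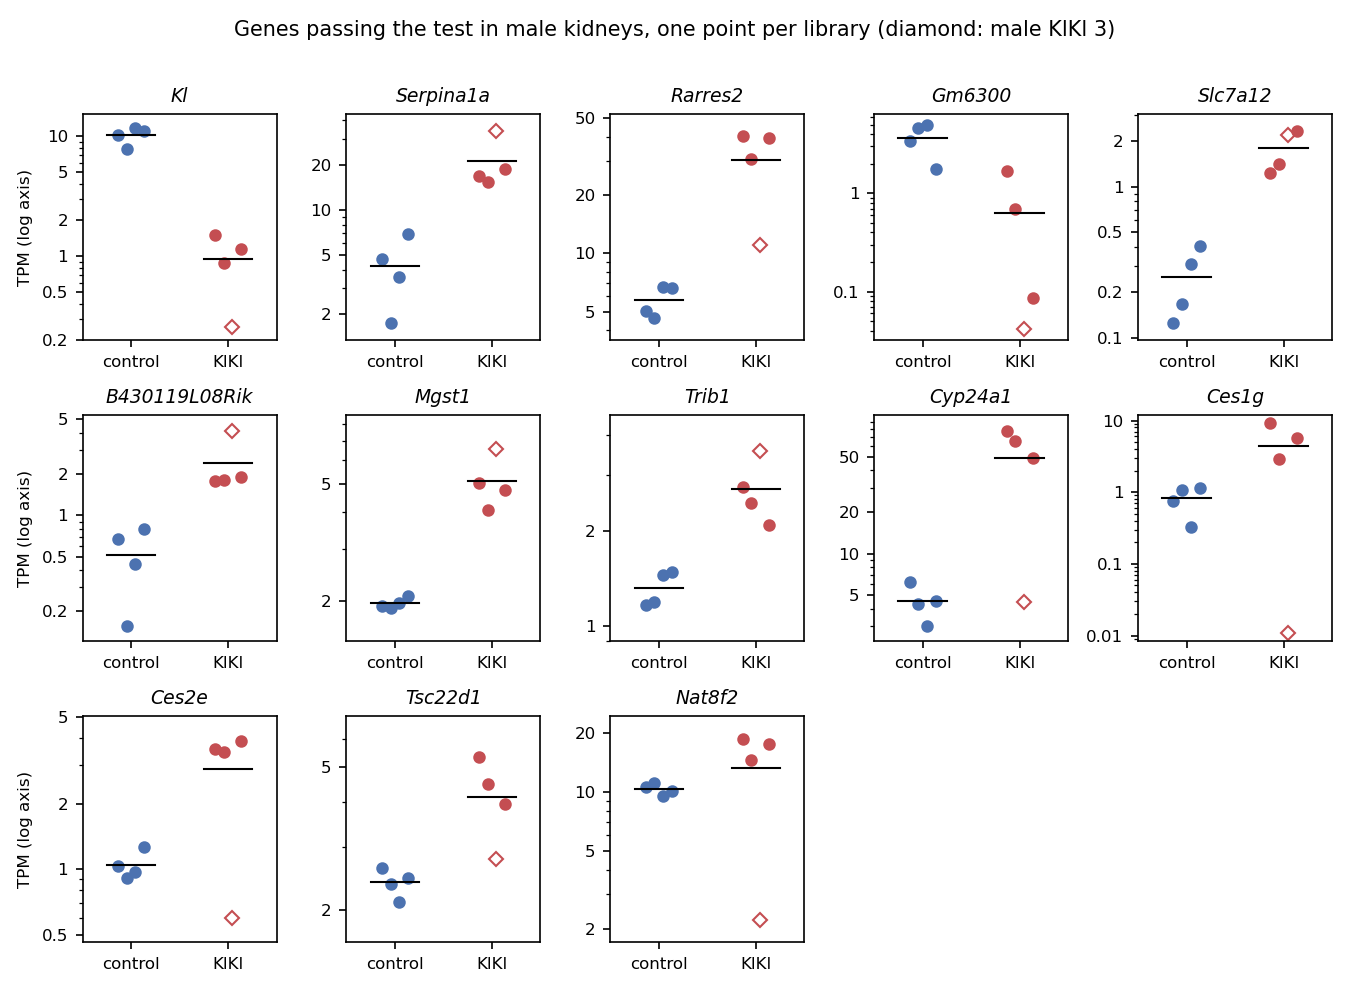
TPM (vertical log axis) of the 13 genes that passed with all male libraries or without KlKl 3, in 4 control and 4 KlKl kidneys, one point per animal, with the group mean as a line and KlKl 3 as an open diamond. For Kl the KlKl animals lie between 0.258 and 1.49 TPM and the controls between 7.82 and 11.7 TPM, and for Cyp24a1, Ces1g, Ces2e and Nat8f2 the diamond lies within or below the controls.

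Of the 8 calls, those of Kl and Mgst1 held without each of the 16 libraries in turn, with adjusted p of up to 0.000666 and 0.0442. Serpina1a was lost without male control 1, 2 or 3, male KlKl 1 or 3, or female control 2 or 4 (adjusted p 0.0503 to 0.125). B430119L08Rik was lost without male control 1, 2 or 3, male KlKl 1, female control 2 or 4, or female KlKl 4 (0.0503 to 0.132). Gm6300 was lost without male control 1, 2 or 3, male KlKl 3 or 4, female control 2 or 4, or female KlKl 4 (0.0501 to 0.132). Rarres2 was lost without any 1 of the 4 male controls, male KlKl 1, 2 or 4, female control 2 or 4, or female KlKl 3 (0.0507 to 0.139), and not without KlKl 3. Slc7a12 was lost without any 1 of the 8 male libraries, female control 2 or any 1 of the 4 female KlKl animals (0.0503 to 0.164). Trib1 was lost without any 1 of 14 libraries, that is all but male KlKl 4 and female control 3 (0.059 to 0.164). In all 8 genes the differences within the CFK and the CFdk series had the same sign as the difference over both. The groups did not overlap in any of the 8, so this sign was fixed in advance and adds no support.

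Leaving KlKl 3 out brought in 4 genes besides Cyp24a1. Ces2e and Ces1g are carboxylesterases, enzymes of the endoplasmic reticulum that cleave esters of drugs and lipids. Ces2e was at 1.04, 0.9145, 0.969 and 1.26 TPM in controls 1 to 4 and 3.565, 3.445, 0.601 and 3.86 TPM in KlKl 1 to 4. KlKl 1, 2 and 4 lay close together above the controls and KlKl 3 below them. It rose by 1.18 without KlKl 3 (standard error 0.13, adjusted p = 0.000384 by limma), against 0.80 with all 4 (adjusted p = 0.217). Ces1g was at 0.753, 1.09, 0.325 and 1.15 TPM in controls 1 to 4 and 9.09, 2.897, 0.0108 and 5.64 TPM in KlKl 1 to 4. KlKl 3 had 5 recovered reads of Ces1g, where the other KlKl animals had 4693, 1831 and 3349. It rose by 1.83 without KlKl 3 (standard error 0.23, adjusted p = 0.00175 by limma), against 1.17 with all 4 (adjusted p = 0.2298).

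Tsc22d1, a leucine zipper regulator responsive to TGF-beta, was at 2.61, 2.36, 2.104 and 2.45 TPM in controls 1 to 4 and 5.35, 4.48, 2.77 and 3.96 TPM in KlKl 1 to 4, without overlap in either fit, and rose by 0.72 without KlKl 3 (adjusted p = 0.00777 by limma). Nat8f2, an N-acetyltransferase of a cluster expressed in the proximal tubule, was at 10.6, 11.03, 9.51 and 10.1 TPM in controls 1 to 4 and 18.6, 14.5, 2.215 and 17.45 TPM in KlKl 1 to 4. KlKl 3 lay far below the controls and the other KlKl animals above them, so that the difference was 0.04 with all 4 (adjusted p = 0.952) and 0.65 without KlKl 3, where it passed (adjusted p = 0.0213 by limma). On the same 7 male libraries after median-ratio scaling Ces2e (0.99), Ces1g (1.60) and Cyp24a1 (3.32) passed, and Mgst1, B430119L08Rik, Tsc22d1 and Nat8f2 did not. Leaving out a further male library ended the call of Nat8f2 without control 1, 3 or 4 or KlKl 1 or 4 (adjusted p 0.0574 to 0.113), of B430119L08Rik without control 3 or KlKl 1, 2 or 4 (0.0744 to 0.0925), of Mgst1 without KlKl 1 or 4 (0.0597 and 0.0634) and of Tsc22d1 without KlKl 1 (0.062).

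Reads recovered from the TPM were also fitted with limma voom, over 17455 genes, which include genes whose long introns kept their TPM under the filter. Here 6 genes passed (0.0344%): Kl, Mgst1, Slc7a12, Crabp1, Osbp2 and Chst11. Crabp1, a cytosolic binding protein for retinoic acid, had 2, 1, 1 and 3 reads in controls 1 to 4 and 52, 68, 19 and 26 reads in KlKl 1 to 4. It was near 0 in every control and present in every KlKl animal, and rose by 4.29 on the log2 scale of reads (standard error 0.70, adjusted p = 0.0464), a size that depends on the prior count. Osbp2, a binding protein for oxysterols, had 352, 294, 526 and 408 reads in controls and 210, 184, 129 and 162 reads in KlKl, and fell by 1.06 (standard error 0.14, adjusted p = 0.00643). Chst11, a sulfotransferase of chondroitin synthesis, had 804, 791, 1339 and 947 reads in controls and 481, 345, 155 and 433 reads in KlKl, and fell by 1.41 (standard error 0.24, adjusted p = 0.0488). None of these 3 reached the TPM filter. In each the read counts of the groups did not overlap, but these counts are not corrected for depth. Recovered depth was 13029960 to 17444798 reads in KlKl libraries and 17104459 to 20109342 in controls. In TPM, Osbp2 was at 0.0888 in KlKl 1 and 0.0894 in control 2, so there the groups nearly met. Without KlKl 3, 10 genes passed (0.0573%), the 6 without Slc7a12 and with Rarres2, Ces2e, Cyp24a1, Ces1g and Slco1a1.

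Among genes without overlap between the groups and with a mean of at least 5 TPM in 1 of the 2, several had large differences that did not pass. Depp1, a regulator of autophagy induced by FOXO factors, was at 4.43, 2.07, 1.495 and 2.07 TPM in controls 1 to 4 and 19.8, 5.11, 10.3 and 10.45 TPM in KlKl 1 to 4, with KlKl 2 just above control 1, and differed by 1.75 (adjusted p = 0.0512). Rdh16f2, of the retinol dehydrogenase family, was at 6.96, 5.22, 12.6 and 14.3 TPM in controls 1 to 4 and 26.7, 27.3, 31.1 and 23.2 TPM in KlKl 1 to 4 and differed by 1.47 (adjusted p = 0.0728). Spp1, osteopontin, a secreted inhibitor of calcification and a marker of injured tubules, was at 82.5, 105, 73.6 and 120.3 TPM in controls 1 to 4 and 189.7, 221, 264 and 121 TPM in KlKl 1 to 4 and differed by 1.02 (adjusted p = 0.101), with KlKl 4 barely above control 4. Ugt1a2, a glucuronosyltransferase, was at 0.899, 1.04, 0.343 and 0.706 TPM in controls 1 to 4 and 3.27, 1.38, 25.97 and 2.01 TPM in KlKl 1 to 4, and its difference of 1.63 was 0.86 without KlKl 3. Apoe, a lipid carrier protein, was at 51.6, 52.4, 68.9 and 65.1 TPM in controls 1 to 4 and 89.5, 130.5, 814 and 78.6 TPM in KlKl 1 to 4, and its difference of 1.48 was 0.71 without KlKl 3. In these last 2 genes KlKl 3 was far above the other KlKl animals. In the other direction Hsd17b11, a dehydrogenase of lipid droplets, was at 7.46, 6.54, 15.5 and 7.21 TPM in controls 1 to 4 and 6.18, 4.75, 5.23 and 4.44 TPM in KlKl 1 to 4 and differed by -0.66 (adjusted p = 0.208), with control 3 far above the other controls.

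The tested genes of tubule injury and repair had higher values in KlKl, with none past adjustment. Of 22 listed genes 11 were tested, and Havcr1, Sox9, Vcam1, Cd44, Krt19, Krt20, Ccl2 and Cdkn1a were among those under the TPM filter. All 11 tested members had a positive difference, 10 had an unadjusted p under 0.05 and 9 had no overlap between the groups (5 after median-ratio scaling). Their median was 0.57, 0.43 without KlKl 3 and 0.35 after median-ratio scaling, against 0.18, 0.16 and -0.01 for all genes. Lcn2, a secreted siderophore-binding protein that injured tubules release, was at 0.351, 0.646, 0.489 and 0.395 TPM in controls 1 to 4 and 1.22, 1.77, 5.13 and 0.748 TPM in KlKl 1 to 4. KlKl 3 was the highest and KlKl 4 the lowest of its group, and the difference was 0.96 (adjusted p = 0.204), or 0.59 without KlKl 3. Krt18, a keratin of simple epithelia, was at 3.396, 2.797, 3.22 and 3.699 TPM in controls 1 to 4 and 5.015, 4.27, 11.4 and 4.96 TPM in KlKl 1 to 4 and differed by 0.71 (adjusted p = 0.209), or 0.43 without KlKl 3. Vim, an intermediate filament of mesenchyme and of dedifferentiated tubules, was at 3.09, 2.83, 2.795 and 3.23 TPM in controls 1 to 4 and 4.43, 5.58, 6.545 and 3.79 TPM in KlKl 1 to 4 and differed by 0.59 (adjusted p = 0.104). In these 3 genes the lowest KlKl animal was above the highest control. Clu, the chaperone clusterin, was at 12.5, 11.6, 7.32 and 10.3 TPM in controls 1 to 4 and 21.4, 18.1, 15.1 and 14.7 TPM in KlKl 1 to 4 and differed by 0.69 (adjusted p = 0.104), with KlKl 1 rather than KlKl 3 the highest. Krt7 was at 3.87, 3.745, 3.63 and 2.99 TPM in controls 1 to 4 and 5.91, 5.07, 7.93 and 4.596 TPM in KlKl 1 to 4 and differed by 0.57.

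Markers of other cells were summed in each library. The summed level of 19 macrophage and dendritic markers was 45.0 to 56.6 TPM in controls and 49.2 to 102 TPM in KlKl, highest in KlKl 3 and overlapping between the groups, with 4 members under 0.1 TPM in every male library. All 13 tested members were higher, 6 at an unadjusted p under 0.05 (0 without KlKl 3) and 0 without overlap, with a median of 0.35 (0.22 without KlKl 3 and 0.18 after median-ratio scaling). The summed level of 13 markers of the thick ascending limb was 153 to 187 TPM in controls and 207 to 312 TPM in KlKl, without overlap on the deposited scale. All 9 tested members were higher, 5 at an unadjusted p under 0.05 (4 without KlKl 3) and 5 without overlap (2 after median-ratio scaling). Their median was 0.42 (0.33 without KlKl 3 and 0.20 after median-ratio scaling). The sums of endothelial markers (41.6 to 69.0 TPM in controls and 48.0 to 60.1 TPM in KlKl), lymphocyte markers (6.72 to 27.9 and 11.8 to 21.8 TPM) and adipocyte markers (25.8 to 58.3 and 29.2 to 53.7 TPM) overlapped. Umod, uromodulin, the most abundant protein of urine, was at 107.5, 122, 131 and 128 TPM in controls 1 to 4 and 195, 167, 218 and 142.5 TPM in KlKl 1 to 4. Slc12a1, the sodium-potassium-chloride cotransporter, was at 7.42, 9.703, 9.34 and 10.3 TPM in controls 1 to 4 and 15.5, 11.4, 16.6 and 12.1 TPM in KlKl 1 to 4. Ppp1r1b, a phosphatase inhibitor, was at 4.39, 4.83, 4.84 and 5.145 TPM in controls 1 to 4 and 8.43, 6.96, 6.53 and 8.53 TPM in KlKl 1 to 4, and Bsnd, a chloride channel subunit, at 4.12, 4.6, 5.235 and 6.05 TPM in controls 1 to 4 and 6.53, 6.76, 8.45 and 6.24 TPM in KlKl 1 to 4. In these 4 genes the groups did not overlap on the deposited scale, and the differences were 0.55, 0.54, 0.56 and 0.42 with adjusted p of 0.209, 0.209, 0.0993 and 0.2025. The part of these cell types in the values of the injury genes was not tested.

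Clock genes were higher in KlKl as a list. Of 11 tested members 10 had a positive difference, all 10 at an unadjusted p under 0.05, 6 without overlap (4 after median-ratio scaling) and 0 past adjustment, with a median of 0.47, 0.39 without KlKl 3 and 0.32 after median-ratio scaling. The labels name no time of day, and its part in these values was not tested. Bhlhe40, a repressor in the clock, was at 9.24, 7.68, 8.297 and 10.4 TPM in controls 1 to 4 and 18.5, 15.6, 15.6 and 13.4 TPM in KlKl 1 to 4. All KlKl animals lay above all controls, and the difference was 0.76 (adjusted p = 0.173). Dbp, a transcription factor of the clock's output, was at 23.6, 17.4, 26.99 and 31.1 TPM in controls 1 to 4 and 37.3, 31.9, 56.8 and 38.8 TPM in KlKl 1 to 4 and differed by 0.71 (adjusted p = 0.204). Hlf, its relative, was at 1.79, 1.51, 1.56 and 2.155 TPM in controls 1 to 4 and 2.73, 2.55, 2.89 and 2.49 TPM in KlKl 1 to 4 and differed by 0.42 (adjusted p = 0.157). Dbp and Hlf also had no overlap between the groups. Nr1d2, the nuclear receptor REV-ERB beta, was at 2.69, 2.802, 2.775 and 3.14 TPM in controls 1 to 4 and 4.37, 3.93, 3.62 and 3.88 TPM in KlKl 1 to 4 and differed by 0.36 (adjusted p = 0.173). Per3 was at 0.789, 0.628, 0.694 and 0.931 TPM in controls 1 to 4 and 1.13, 1.19, 2.28 and 1.301 TPM in KlKl 1 to 4 and differed by 0.47 (adjusted p = 0.181). Per1, a period gene, was at 1.199, 1.48, 1.099 and 2.155 TPM in controls 1 to 4 and 2.195, 1.815, 6.44 and 3.52 TPM in KlKl 1 to 4, and Ciart, a repressor of the clock, at 1.65, 1.295, 1.12 and 2.48 TPM in controls 1 to 4 and 2.297, 2.15, 7.18 and 3.105 TPM in KlKl 1 to 4. In both KlKl 3 was by far the highest and the groups overlapped, with differences of 0.77 and 0.74 that were 0.49 and 0.43 without it.

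The clock's activators CLOCK and BMAL1 bind the E-box CACGTG, which was found in 7.15% of the 32851 promoter windows and in at least 1 window of 8.09% of 27025 genes. Of 9 tested clock genes with a window 4 held it. The 30 bases around each match are shown 5′ to 3′ in the direction of the gene (RefSeq, GRCm38.p6), with the E-box in capitals, beginning at position -153 relative to the start of Bhlhe41, -116, -58 and -44 for Ciart, -166 for Per1, and -127 and -138 for the 2 starts of Tef.
Bhlhe41, chr6:145865556-145865585, minus strand: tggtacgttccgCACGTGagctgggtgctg
Ciart, chr3:95882327-95882356, minus strand: tgcatctagagtCACGTGttgccggtaagc
Ciart, chr3:95882269-95882298, minus strand: cgcagggggaggCACGTGcagaaccgcacg
Ciart, chr3:95882255-95882284, minus strand: cgtgcagaaccgCACGTGtctgggaggggg
Per1, chr11:69098771-69098800, plus strand: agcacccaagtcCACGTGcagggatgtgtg
Tef, chr15:81802534-81802563, plus strand: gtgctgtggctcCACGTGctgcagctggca
Tef, chr15:81811264-81811293, plus strand: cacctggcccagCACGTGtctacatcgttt
A match in these windows is a description of the sequence. The last 2 matches of Ciart overlap in the bases shown.

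Many genes of the mouse kidney differ between the sexes under androgen. Of 20 tested genes known as more abundant in male kidney, 18 were lower in KlKl, against 735 of all 8059 genes. At an unadjusted p under 0.05, 6 were lower (0.409% of all genes), and 0 passed adjustment. Without overlap 1 was lower (0.174% of all genes), and 10 after median-ratio scaling (2.22%). The median was -0.45, and -0.14 without KlKl 3. After median-ratio scaling it was -0.63, and -0.29 without KlKl 3. Slco1a1, an organic anion transporter, was at 3.53, 3.25, 9.62 and 3.59 TPM in controls 1 to 4 and 2.37, 1.67, 0.0835 and 1.02 TPM in KlKl 1 to 4. All KlKl animals lay below all controls, control 3 was far above the other controls, and the difference was -1.39 (adjusted p = 0.104). Without KlKl 3 it fell in the voom fit to reads, by 1.71 (adjusted p = 0.0386). Ugt2b37, a glucuronosyltransferase, was at 4.235, 2.63, 15.3 and 8.575 TPM in controls 1 to 4 and 3.54, 1.63, 0.273 and 2.23 TPM in KlKl 1 to 4 and differed by -1.48 (adjusted p = 0.1705). Acsm2, a medium-chain acyl-CoA synthetase, was at 81.5, 69.8, 93.3 and 81.7 TPM in controls 1 to 4 and 79.2, 52.4, 30.5 and 61.3 TPM in KlKl 1 to 4 and differed by -0.61 (adjusted p = 0.219). In the last 2 genes the groups overlapped on the deposited scale, through KlKl 1, and did not after median-ratio scaling.

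Of 13 tested genes known as more abundant in female kidney, 9 were higher in KlKl males, a smaller share than the 7324 of 8059 of all genes. After median-ratio scaling 7 of the 13 were higher. On the deposited scale 5 were higher at an unadjusted p under 0.05 (19.5% of all genes) and 1, Slc7a12, passed adjustment. The median was 0.25 (0.16 without KlKl 3 and 0.00 after median-ratio scaling). Prlr, the prolactin receptor, was at 0.172, 0.0841, 0.205 and 0.522 TPM in controls 1 to 4 and 0.738, 0.555, 1.76 and 1.065 TPM in KlKl 1 to 4. The groups did not overlap, and the difference of 0.68 did not pass (adjusted p = 0.1599). Cyp4a14, a fatty acid hydroxylase, was at 5.09, 7.49, 2.055 and 3.21 TPM in controls 1 to 4 and 6.78, 17.2, 58.45 and 6.705 TPM in KlKl 1 to 4, and Cyp2a4, a steroid hydroxylase, at 32.6, 28.5, 44.1 and 44.6 TPM in controls 1 to 4 and 55.5, 20.5, 2.365 and 44.2 TPM in KlKl 1 to 4, so that KlKl 3 was the highest male for the first and the lowest for the second. In these control animals the mean of Cyp2a4 was 37.4 TPM in males and 11.2 TPM in females, and that of Cyp2a5 11.85 and 6.535 TPM, against the name of the list, and neither difference was tested.

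**Figure D3:**
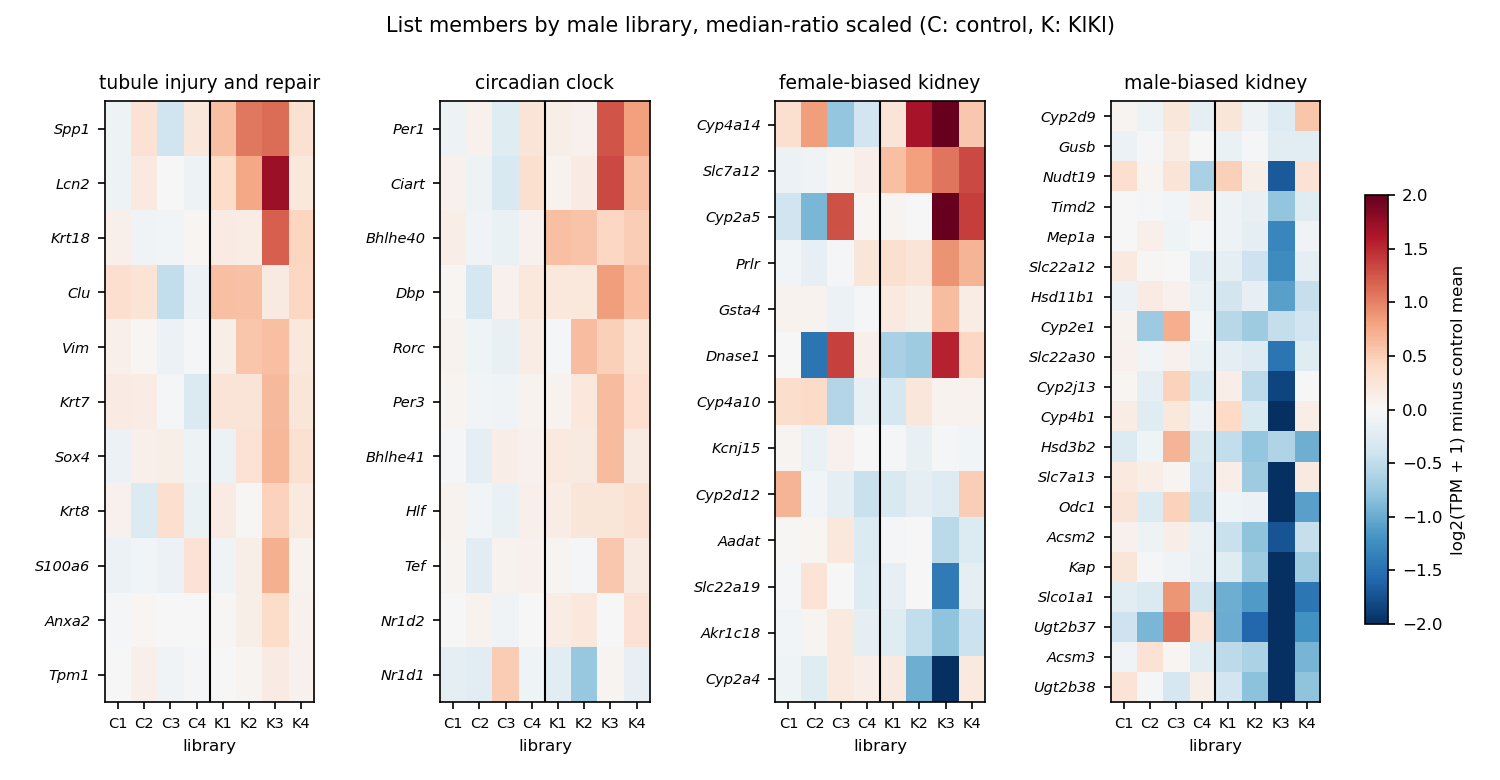
Each tested member of 4 gene lists (rows) in the 8 male libraries (columns, controls C1 to C4 and KlKl K1 to K4), as log2(TPM + 1) after median-ratio scaling minus the control mean of that gene, with red above and blue below it and colours saturated at 2. The column of KlKl 3 has the deepest colours in all 4 lists, with medians of the lists over genes of 0.35 for tubule injury and repair and 0.32 for the circadian clock.

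All 13 mitochondrially encoded transcripts were lower in KlKl, with a median of -0.23 (-0.22 without KlKl 3 and -0.49 after median-ratio scaling). Of them 0 had an unadjusted p under 0.05 and 0 passed adjustment. Without overlap 4 were lower (0.174% of all genes), and 2 after median-ratio scaling (2.22%). The 44 genes of oxidative phosphorylation encoded in the nucleus had a median of 0.21 (-0.04 after median-ratio scaling). Of 13 tested cholesterol synthesis genes 6 were higher, with a median of -0.01. Idi1, the isomerase of isopentenyl diphosphate, was at 13.6, 20.1, 16.5 and 11.95 TPM in controls 1 to 4 and 13.3, 5.28, 3.62 and 6.77 TPM in KlKl 1 to 4, with KlKl 2, 3 and 4 below every control, and differed by -1.11 (adjusted p = 0.157). Of 18 tested organic ion and drug transporters 6 were higher, with a median of -0.23 that became 0.03 without KlKl 3. The highest median among the lists plotted, 1.92 (2.29 without KlKl 3), was that of 5 tested erythrocyte genes, for which 3 had an unadjusted p under 0.05, 0 passed and 0 had no overlap. Hba-a1, an alpha globin, was at 6.902, 9.95, 1.46 and 20.5 TPM in controls 1 to 4 and 39.8, 65.5, 17.9 and 22.99 TPM in KlKl 1 to 4 and differed by 2.02 (adjusted p = 0.2215). Hbb-bs, a beta globin, was at 11.6, 18.1, 3.3 and 40.5 TPM in controls 1 to 4 and 81.5, 137, 23.3 and 31.3 TPM in KlKl 1 to 4, with controls 3 and 4 at the ends of the range of the controls, in kidneys labelled as perfused.

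**Figure D4:**
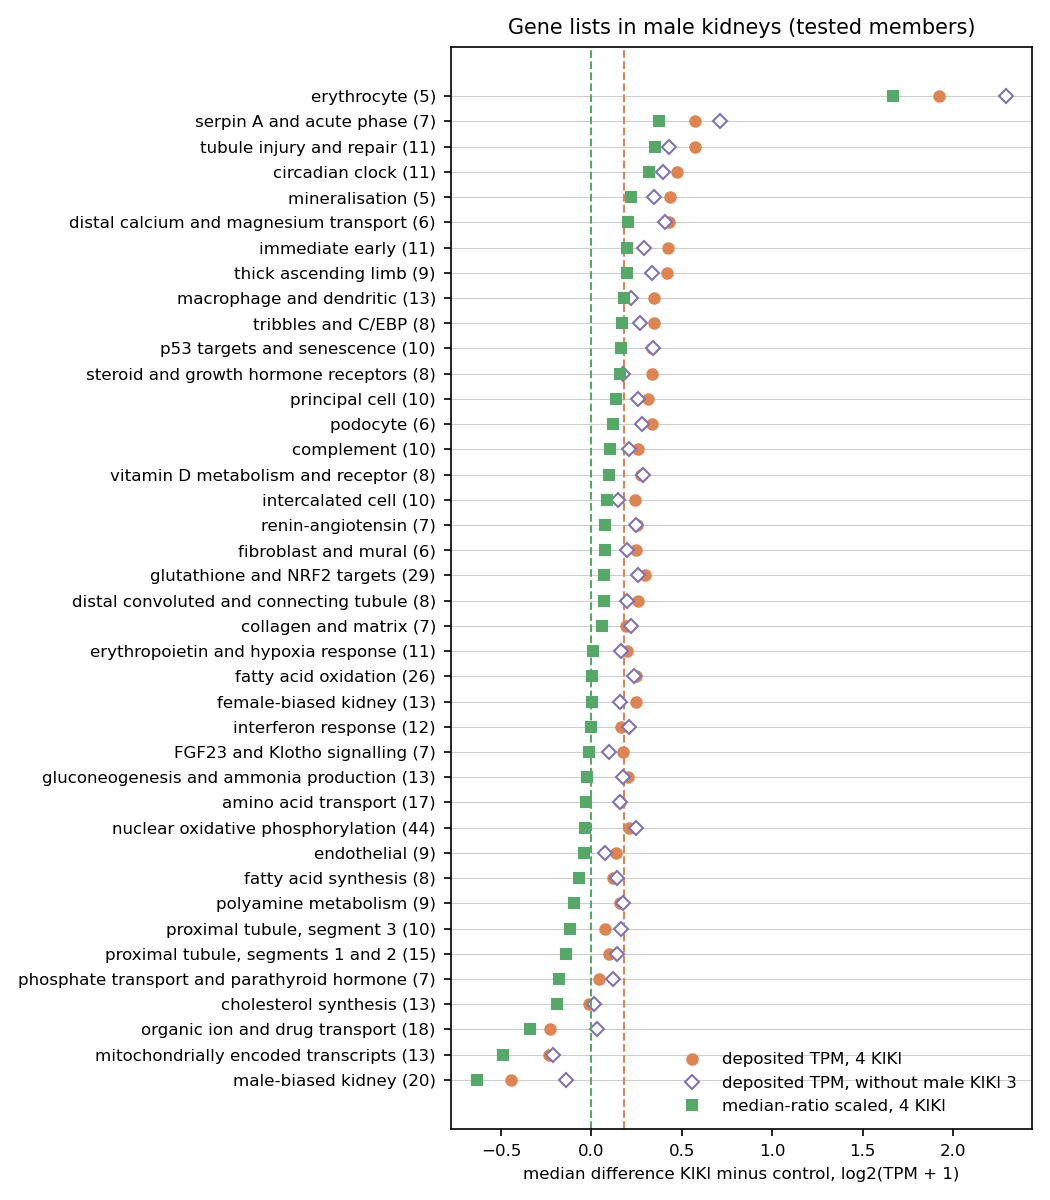
Median difference between male KlKl and control kidneys in log2(TPM + 1) (horizontal axis) over the tested members of each gene list with at least 5 of them (rows, number of members in brackets), for deposited TPM with 4 and with 3 KlKl animals and for median-ratio scaled TPM. Dashed lines are the medians of all tested genes, 0.18 on the deposited scale and -0.01 after median-ratio scaling, and among these lists the erythrocyte list lies farthest to the right and the male-biased list farthest to the left, at 1.92 and -0.45 on the deposited scale.

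KlKl 3 lay more than 1 on the log2 scale above all other male libraries in 38 genes and below them in 30, whereas no other male library did so in more than 6 and 8 genes. Among genes with a mean of at least 5 TPM over the 8 males, it lay farthest above the others in Hpd, an enzyme of tyrosine breakdown, at 79.9 TPM where the other 7 libraries had 0.767 to 5.803, and Apoe, at 814 TPM against 51.6 to 130.5. The secreted epithelial protein Wfdc2 was at 37.7 TPM against 9.61 to 15.2, the stress-induced Gadd45g at 72.4 TPM against 10.1 to 31.2, and the fatty acid hydroxylase Cyp4a14 at 58.45 TPM against 2.055 to 17.2. Cyp2a5, a cytochrome of coumarin metabolism, was at 67.55 TPM against 4.22 to 27.85, and the unnamed models Gm2830 and Gm6969 at 15.3 and 99.05 TPM.

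Of the 8 such genes in which KlKl 3 lay farthest below the others, the androgen-regulated protein Kap was at 761 TPM where the others had 4038 to 7074, the glucuronosyltransferase Ugt2b38 at 0.968 TPM against 25.35 to 51.5, and the acyl-CoA synthetase Acsm3 at 0.328 TPM against 13.5 to 28.9. The organic anion transporter Slc22a7 was at 0.589 TPM against 9.395 to 33.7, the cytochrome Cyp4b1 at 11.2 TPM against 62.7 to 142, and the amino acid transporter Slc7a13 at 4.53 TPM against 20.6 to 44.35. Ces1f, a carboxylesterase, was at 3.69 TPM against 17.1 to 28, and Cyp2a4 at 2.365 TPM against 20.5 to 55.5. With KlKl 3 left out, the differences of Kap, Ugt2b38 and Slc22a7 went from -1.01, -1.46 and -1.28 to -0.34, -0.46 and -0.35. Those of Cyp4b1, Slc7a13, Ces1f and Cyp2a4 had the other sign without it, with 0.29, 0.08, 0.02 and 0.01. KlKl 3 had the lowest summed level of early proximal tubule markers, Cyp4b1 among them, of the 8 libraries, 996 TPM, while the median over that list of log2(TPM + 1) relative to the control mean was 0.101 in KlKl 3, above KlKl 4 (-0.11) and control 2 (-0.301). These genes were picked for lying outside the range of the other libraries, so their values are a description without a test.

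**Figure D5:**
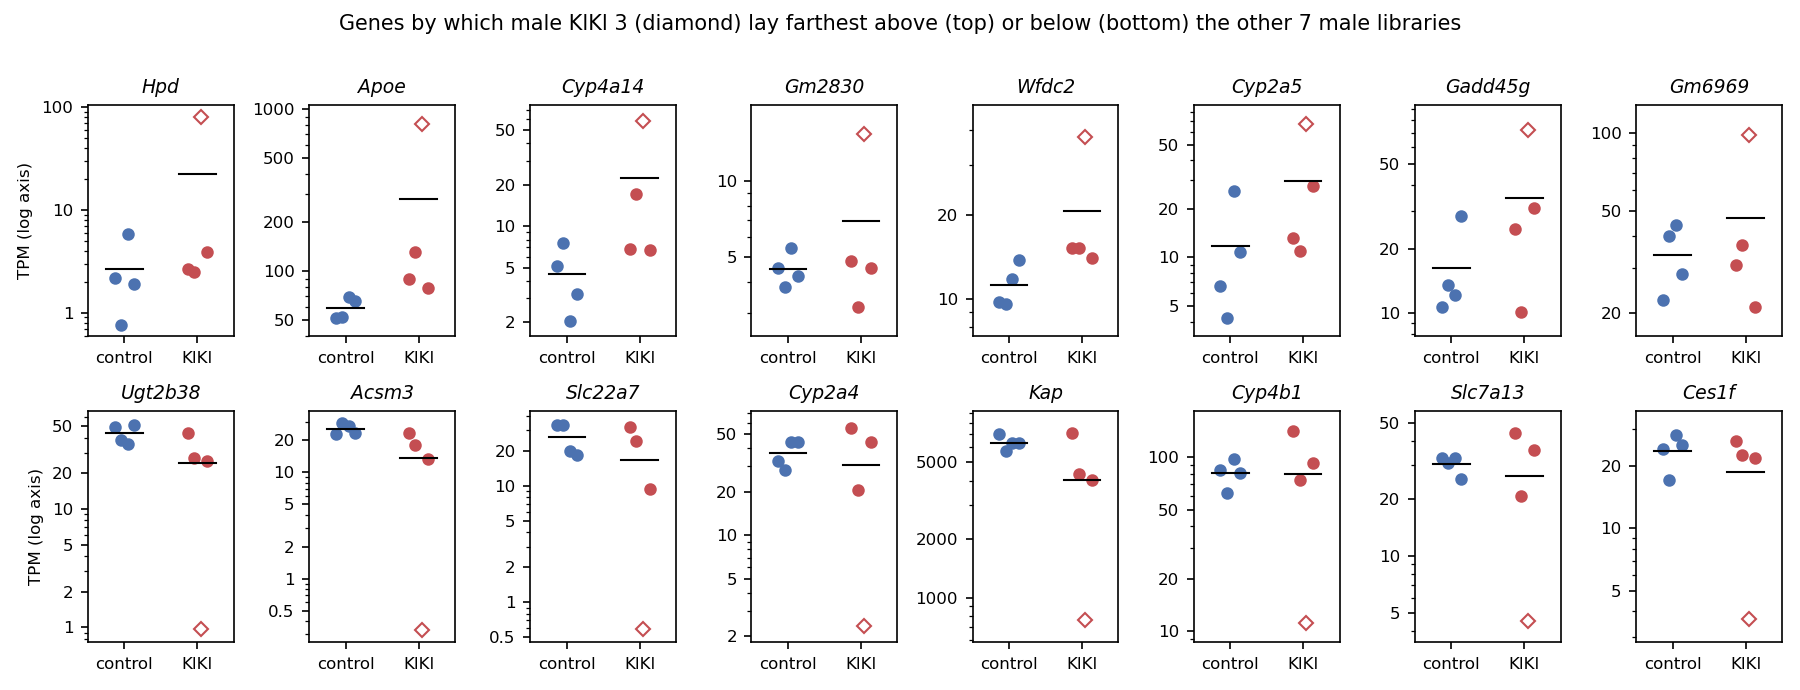
TPM (vertical log axis) of the 8 genes, among those with a mean of at least 5 TPM over the 8 males, by which male KlKl 3 lay farthest above the other 7 male libraries (top) and the 8 by which it lay farthest below them (bottom), one point per animal in 4 controls and 4 KlKl, with group means as lines and KlKl 3 as an open diamond. Hpd stands at 79.9 TPM in KlKl 3 against 0.767 to 5.803 in the others, and Kap at 761 against 4038 to 7074.

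The male response was set beside the female one by testing the difference of the 2 effects. With all libraries 0 of 8059 genes passed in limma and 0 in the voom fit, and 175 (2.17%) had an unadjusted p under 0.05 in limma. Without KlKl 3, 2 genes passed (0.0248%). Rarres2 had a difference of 0.11 in females, from a mean of 8.015 to 9.301 TPM, and the male effect exceeded it by 2.39 (standard error 0.37, adjusted p = 0.0492 by limma). Ces2e had a difference of -0.20 in females, and the male effect exceeded it by 1.38 (standard error 0.18, adjusted p = 0.00988 by limma). With KlKl 3 in the fit the same differences of effects were 1.98 and 1.00 (both with an adjusted p of 0.9997). For the genes called in males with all libraries the female differences were -1.87 for Kl, -0.10 for Mgst1, 0.09 for Trib1, -0.25 for Slc7a12, 1.48 for Serpina1a and 0.52 for B430119L08Rik, and none differed from the male effect past the threshold (Mgst1 adjusted p = 0.269). Gm6300 was at a mean of 0.0177 TPM in female controls and 0.00923 TPM in female KlKl.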

How the data were processed

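Polyadenylated RNA of 16 mouse kidneys was sequenced. The authors deposited 1 table of TPM values, with 30277 genes once a repeated entry was removed. Partek and the build mm39 are named in the submitters' processing notes. Aligner, counting rule and annotation release: not given in the sources used here. Tested on the values, the deposited TPM follow reads plus 0.0001 divided by the gene's length from start to end, scaled to 309446 per library. They lead to whole reads (within 0.1) for 81.2% of values under 20 reads, so read counts are estimates, and 3 reads of a gene of 1 kb are 0.136 to 0.226 TPM in the male libraries, for counting error only.

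Columns were matched to libraries by name and to groups by the labels, and 0 other columns were found. Genes with 1 TPM or more in at least 4 of 16 libraries were tested on log2(TPM + 1) with limma 3.58.1 in R 4.3.3. The fit had 4 group means and a mean-variance trend, and p-values were adjusted over all tested genes by the Benjamini-Hochberg method (threshold 0.05). The scripts were tested on simulated data. The animals are separate per the labels, so p-values measure the spread between animals.

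Genes named are Kl, all that passed in the male comparison, in the fit without KlKl 3 or in voom, the genes with the largest differences among those with a mean of at least 5 TPM in 1 of the groups and no overlap, members of gene lists, the genes by which KlKl 3 lay farthest outside the other males, and Xist and Y-linked genes. Lists held 795 symbols, of which 1 matched under an older symbol, 14 had no match and 447 were tested. The members, lists and tests were chosen with earlier results of these data known. Promoter sequences are from RefSeq (GRCm38.p6) and were matched by symbol. Alternatives covered the threshold, pseudocount, filter, scaling, voom on recovered reads, males alone, replicate block, name series, age, array weights, trend, control genotype and leaving out each library. Age and array weights on median-ratio scaled values, age in males alone, and leaving out female control 3 together with KlKl 3 were added after seeing the data.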

Additional observations from a re-analysis of the deposited data

Results flagged for a closer look

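In 12 of 148 groups of 4 animals 1 library stood apart, with a gap to its neighbour, as a share of the group's range, above Dixon's critical value at 95%. Chance alone flags about 1 group in 20. KlKl 3 was that library in 9 of the 12. It was the highest KlKl animal for B430119L08Rik (share 0.929), Hpd (0.893), Wfdc2 (0.923) and Krt18 (0.845), and the lowest for Ces2e (0.920), Nat8f2 (0.870), Cyp24a1 (0.834), Ugt2b38 (0.831) and Ces1f (0.897). Control 3 was the highest control for Hsd17b11 (0.853) and Slco1a1 (0.917), and KlKl 1 was the highest of its group for Osbp2 (0.863). Hpd, Wfdc2, Ugt2b38 and Ces1f were named because of their place in KlKl 3, so this result is not independent of that choice for them. Ces2e, Nat8f2 and Cyp24a1 passed the test only once KlKl 3 was left out, so their flags are not independent of its place either.

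The effect of the KlKl genotype differed between males and females for Rarres2 (adjusted p = 0.0492) and Ces2e (adjusted p = 0.00988) in limma's test of the difference of the effects without KlKl 3. With KlKl 3 in the fit neither passed. Over 12 other settings without KlKl 3, Rarres2 kept its call in 3 (limma adjusted p up to 0.187) and Ces2e in 7 (up to 0.128).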

How the results depend on the processing

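The 8 calls became 17 at an adjusted p under 0.1, 3 with a pseudocount of 0.1, 5 with no filter, 4 with a filter of 5 TPM, 2 with median-ratio scaling, 3 with scaling on nuclear protein-coding genes, 3 with the males alone, 909 with age as a covariate, 249 with array weights (236 higher), 1 with heterozygous and 3 with wild-type controls alone, 1 with age on median-ratio scaled values and 2 with age in males alone. Leaving out 1 library gave 2 to 17 calls. The 2 arose for each of male controls 1 to 3 and for female control 2, and the 17 for female control 3. Of the 16 libraries female control 3 had the fewest recovered reads (8209483). It also had the lowest share of TPM on mitochondrially encoded genes (22.58%) and the highest on ribosomal RNA (15.22%). This animal was 57 days old, and the part of these values in the counts was not tested. Omitting female control 4 left 3, omitting male KlKl 1, like omitting female KlKl 4, left 4, and omitting male control 4, like omitting female KlKl 3, left 5. The 9 calls without KlKl 3 became 24 at an adjusted p under 0.1, 23 with no filter, 4 with a filter of 5 TPM, 5 with median-ratio scaling, 20 with age, 956 with array weights, 5 with age on median-ratio scaled values and 25 without female control 3, and 6 to 11 without 1 more male library. The 0 differences between the sexes became 2 without male KlKl 3 or female control 4, with 0 to 2 over all libraries left out. Their 2 without KlKl 3 became 1 with median-ratio scaling, 1 with voom, 0 with a pseudocount of 0.1, and 0 to 2 without 1 more library. With the replicate block the male calls were 38, and 127 without KlKl 3, but the replicate numbers did not pair the animals: deviations of the same number correlated at 0.185, 0.0347, 0.219 and -0.16, and KlKl 1 to 4 correlated best with controls 1, 4, 3 and 2. With the block 0 differences between the sexes passed, and 2 without KlKl 3.

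Of 68 named genes 60, among them the 8 called, kept their direction in every setting in which they were tested, 33 or, for genes under the filter of 5 TPM, 32. For the 8 called, whose groups did not overlap, this was fixed in advance wherever a library was left out. Over the libraries left out, the exceptions ranged from -0.83 to 0.0169 (Ces1f), -1.35 to 0.00904 (Cyp2a4), -0.89 to 0.294 (Cyp4b1), -0.0971 to 0.56 (Gm2830), -0.171 to 0.555 (Gm6969), -0.928 to 0.0839 (Slc7a13), each with the other sign without KlKl 3, and -0.215 to 0.654 (Nat8f2). Gm2830 also reversed with array weights (-0.184; -0.139 on median-ratio scaled values) and with age on these (-0.0603), and Gm6969 with voom (-0.0233) and weights on median-ratio scaled values (-0.294). Nat8f2, near 0 with all libraries, reversed with a pseudocount of 0.1 (-0.0171), median-ratio (-0.171) and nuclear scaling (-0.12), voom (-0.317), age (-0.155; -0.413 on median-ratio scaled values; -0.286 in males alone) and heterozygous controls (-0.0263). Slc34a1 reversed with age (0.0646) and heterozygous controls (0.0453). The cause was not tested. Depth of 13029960 reads in KlKl 3 limits its low genes most.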

Other observations

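Further gene lists in male kidneys are given as counts beside the median of 0.18 (-0.01 after median-ratio scaling) of all genes. Of all 8059 genes 7324 were higher, 1570 (19.5%) at an unadjusted p under 0.05 and 828 at that level without KlKl 3. Of 10 tested p53 targets and senescence genes all 10 were higher in KlKl, 7 at an unadjusted p under 0.05 and 5 without KlKl 3, with a median of 0.34 with all animals and also without KlKl 3 (0.16 after median-ratio scaling). Of 5 tested mineralisation genes all 5 were higher at an unadjusted p under 0.05, 3 without KlKl 3, with a median of 0.44 (0.35 without KlKl 3 and 0.22 after median-ratio scaling). Of 11 tested immediate early genes 10 were higher, 5 at an unadjusted p under 0.05 and 3 without KlKl 3, with a median of 0.42 (0.29 without KlKl 3). At that level 1 was lower with all animals (0.409% of all genes) and 1 without KlKl 3 (21 of all 8059 genes). Of 6 tested podocyte genes 5 were higher at an unadjusted p under 0.05, 2 without KlKl 3, and 0 had no overlap after median-ratio scaling, with a summed level of 24.01 to 31.9 TPM in controls and 31.7 to 41.2 TPM in KlKl. Of 26 tested genes of fatty acid oxidation 23 were higher, a share near that of all genes, with a median of 0.25 that was 0.00 after median-ratio scaling. None of these lists held a gene that passed adjustment over all genes in limma.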
